A study of Gallus gallus with 9 samples.

Results

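The sign of optical defocus was compared with a lens worn on both sides: 3 arrays of the amacrine cell layer after minus lens wear against 3 arrays after plus lens wear, 6 of the 9 arrays of the series. Arrays were taken by their sample titles. For the minus lens group the titles alone give the lens, because the label of the source tissue has both signs in it. Every chicken probe set at log2 4 or above on at least 3 of the 9 arrays was compared, whatever its difference. The 2 lens groups held domestic chicks that wore a lens of -7 D or of 7 D over 1 eye from noon to noon, 24 h in all. The remaining 3 arrays came from chicks of the same age that wore no lens. All birds lived under 12 h of light and 12 h of dark, at 500 lux. The labels give 3 chicks for each condition and no strain, sex, age in days or fellow eye, and they do not tie an array to a chick. The amacrine cell layer was cut by laser capture from 10 µm sections, and 10 to 100 ng of its RNA was amplified in 2 rounds and hybridised to a chicken oligonucleotide array that reads each gene through 1 or more probe sets.

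A lens of negative power moves the image plane behind the retina, and a lens of positive power moves it in front. The young chick eye compensates by growing faster under the first and slower under the second, and it does so with the optic nerve cut, which places the reading of the sign of blur within the eye. Amacrine cells, the inhibitory and peptide-releasing interneurons of the inner retina, are the neurons most studied for this task, in chicks through glucagon and the transcription factor EGR1, and bipolar cells supply their input.

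Tissue and arrays were checked first. GAD1, which makes GABA, had a log2 intensity of 14.12 ± 0.04 (SD, n = 3) under the minus lens and 14.28 ± 0.06 under the plus lens, and the retinal transcription factor PAX6 had 13.12 ± 0.10 and 13.16 ± 0.11. TH, the enzyme of dopamine synthesis, lay below the filter, as did POU4F2 of ganglion cells, LHX1 of horizontal cells and PTPRC of leukocytes. Of 35 photoreceptor markers 4 were measured, of 18 bipolar markers 10, of 20 ganglion cell markers 12, of 21 Müller glia markers 11 and of 16 red blood cell markers 0. The third minus lens array was unlike the rest, with a mean correlation to them of 0.953, where the rest had 0.971 to 0.975. Spiked-in hybridisation controls read log2 13.17 on it and 11.53 to 12.19 elsewhere. The 3′ probe set of EF1A exceeded the 5′ one by log2 6.78 on it and by 5.43 to 6.19 elsewhere, a sign of RNA quality, while the same value for actin was the lowest of the 9, at 7.39. The median standard deviation of a probe set was 0.251 between the minus lens arrays, 0.176 between the plus lens arrays and 0.172 between the controls. Since the labels do not tie samples to chicks, a p-value reflects no more than the spread between these arrays, and part of that spread may be technical.

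The transcripts of ODF2L and KLF11 differed between the lenses, both lower under the minus lens. They were 2 of 12975 probe sets tested (0.0154%) past an adjusted p of 0.05 in limma, and no probe set passed in the other direction. ODF2L encodes a relative of ODF2, a protein of centrioles and sperm tails. It read 4.20, 4.04 and 4.42 (log2 intensity) under the minus lens (replicates 1, 2 and 3, the order kept below) and 6.18, 5.84 and 5.91 under the plus lens. The untreated arrays read 4.14, 4.10 and 4.19. The plus lens arrays thus stood apart from the other 6, which lay close to the filter at log2 4 and overlapped one another. The difference was log2 -1.76 (SE 0.14, adjusted p = 0.0114, 3.39-fold), with a 95% interval of -2.08 to -1.44. Against control, ODF2L differed by 1.83 under the plus lens (adjusted p = 0.0081 in limma) and by 0.07 under the minus lens (adjusted p = 0.92). For the plus lens against control no other probe set passed (1 in all, 0.00771% of those tested), and 1 (0.00771%) passed for the minus lens.

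KLF11 is a zinc finger repressor of the Krüppel-like family, known as an early response gene of transforming growth factor beta. It read 5.14, 4.84 and 5.09 under the minus lens, 5.95, 5.58 and 5.56 without a lens and 6.72, 6.57 and 6.56 under the plus lens. These 9 values fell into 3 separate blocks with the untreated arrays in the middle. The lenses differed by log2 -1.60 (SE 0.15, adjusted p = 0.0246 in limma, 3.03-fold). Neither lens alone differed from control past the threshold (-0.68 with adjusted p = 0.62 and 0.92 with adjusted p = 0.65), and those comparisons share the control arrays. A second, brighter KLF11 probe set read 7.56, 7.18 and 7.33 against 7.33, 7.70 and 7.81. Its lens groups overlapped, and its difference was -0.25 (SE 0.21, adjusted p = 0.79).

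Both calls lay near the threshold, and single arrays or the processing decided them. With only the 6 lens arrays in the fit the adjusted p of both was 0.174, and with the replicate number as a block it was 0.0828. Median centring gave 0.0539 for ODF2L and 0.0739 for KLF11. KLF11 alone was lost with quantile normalisation (0.0772), with no filter (0.0664) and with the filter at log2 6 (0.158), where ODF2L was not tested. Without minus lens replicate 1 the adjusted p of both was 0.0641, and without minus lens replicate 2 or 3 that of KLF11 was 0.0538 or 0.113. Leaving out plus lens replicate 1, 2 or 3 gave ODF2L 0.0632, 0.0561 or 0.0911 and KLF11 0.156, 0.186 or 0.185. Without control replicate 2 or 3 the values were 0.0570 and 0.0577 for ODF2L and 0.0832 and 0.0747 for KLF11. With 1 array left out the log2 differences themselves moved little, between -1.86 and -1.66 for ODF2L and between -1.66 and -1.51 for KLF11. A pseudocount of 16 shrank them to -1.19 for ODF2L and -1.24 for KLF11.

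**Figure D1:**
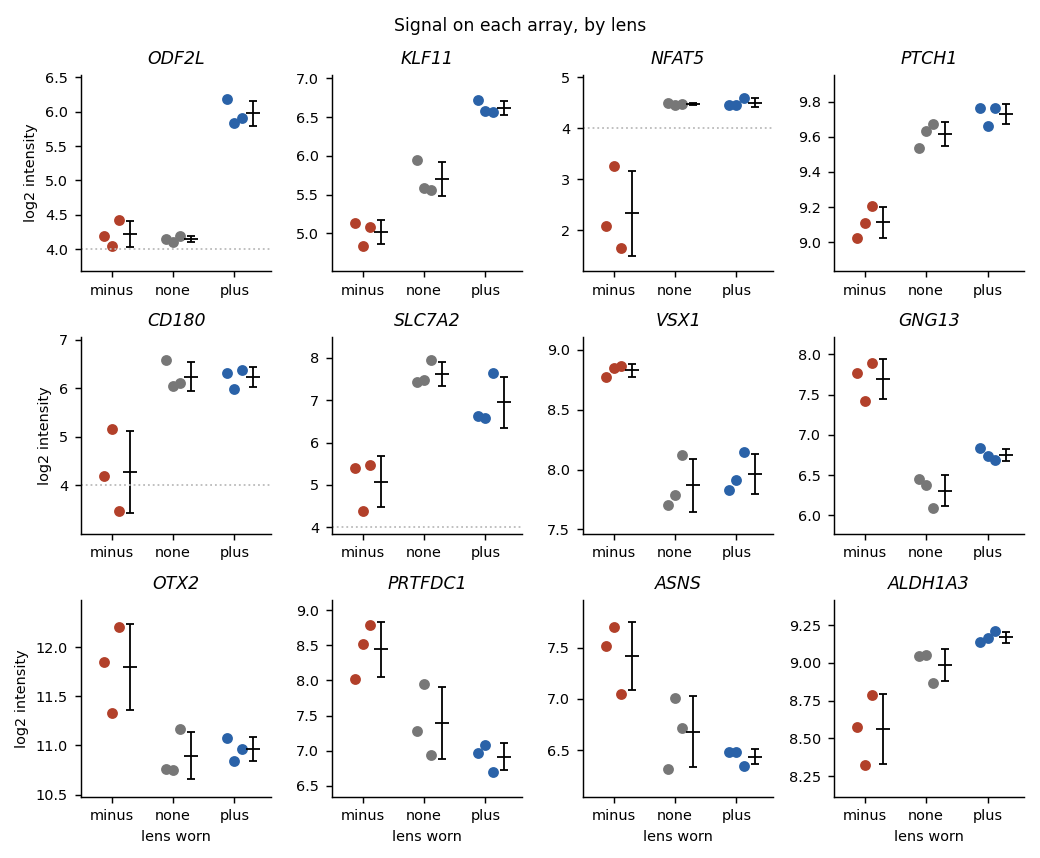
Log2 intensity (vertical axis, a separate range in each panel) of 12 genes on each array, for the minus lens, no lens and the plus lens (horizontal axis); points are arrays in the order of replicates 1 to 3, bars are the mean ± SD (n = 3), and the dotted line is the filter at log2 4. ODF2L is high on the 3 plus lens arrays alone, KLF11 and ALDH1A3 step up from minus through none to plus, and VSX1, GNG13 and OTX2 lie higher on the 3 minus lens arrays than on the other 6.

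Below these 2, genes were described in order of p among those whose 3 minus lens and 3 plus lens arrays did not overlap. Such probe sets numbered 1256 (9.68% of those tested), 588 (4.53%) higher and 668 (5.15%) lower under the minus lens. With 3 arrays against 3, random order alone parts the groups for a share of about this size. A lack of overlap is thus no evidence by itself that a gene differed. An unadjusted p under 0.05 was reached by 918 (7.08%), 392 (3.02%) with the minus lens higher and 526 (4.05%) lower. A difference of log2 1 or more in either direction was seen for 140 probe sets (1.08%), of which 67 had no overlap. The first 15 genes in each direction are given here. Apart from ODF2L and KLF11 their adjusted p in limma was 0.49 to 0.66, so the rest are a description of these arrays.

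**Figure D2:**
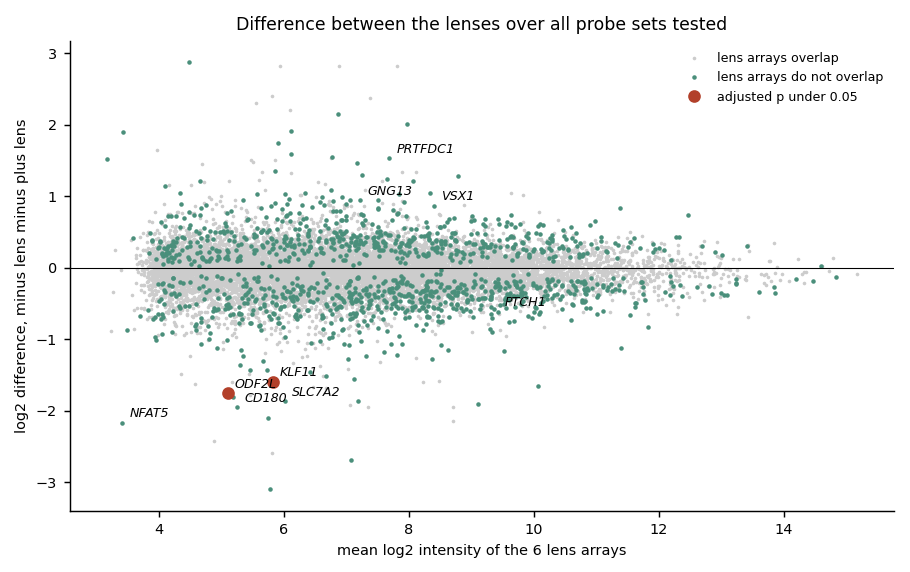
Log2 difference between the lenses (vertical axis, minus lens minus plus lens) against the mean log2 intensity of the 6 lens arrays (horizontal axis) for the 12975 probe sets tested. Green points are the 1256 probe sets whose lens arrays do not overlap, and the 2 larger red points, ODF2L and KLF11, are those past an adjusted p of 0.05.

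Among the genes with lower signal under the minus lens were a receptor, a transporter and regulators of transcription. PTCH1, the receptor of Hedgehog ligands, read 9.02, 9.11 and 9.20 under the minus lens, 9.54, 9.63 and 9.67 without a lens and 9.76, 9.66 and 9.77 under the plus lens. The minus lens arrays lay below all others, and the plus lens and control arrays overlapped. The difference between the lenses was log2 -0.62 (SE 0.10, adjusted p = 0.494). NFAT5, which switches on genes against osmotic stress, read 2.08, 3.26 and 1.65 against 4.45, 4.45 and 4.60 under the plus lens and 4.49, 4.45 and 4.48 in controls. The minus lens mean of NFAT5, 2.33, is under the filter, which leaves the size of -2.17 (SE 0.34) uncertain.

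SLC7A2, which carries arginine and lysine into cells, read 5.39, 4.38 and 5.46 under the minus lens and 6.62, 6.57 and 7.64 under the plus lens, a difference of log2 -1.87 (SE 0.37, adjusted p = 0.58). The controls were higher again, at 7.42, 7.48 and 7.95. CD180, a relative of Toll-like receptors, read 4.20, 5.15 and 3.48 against 6.31, 5.99 and 6.38, with controls at 6.04 to 6.58 (-1.95, SE 0.37, adjusted p = 0.51). Both genes were thus lower on each minus lens array than on any of the other 6. RAD1, a subunit of the DNA damage checkpoint clamp, had -1.24 (SE 0.27), and CDC42BPA, a kinase that acts downstream of the GTPase CDC42, had -1.01 (SE 0.23). Other, brighter probe sets of CDC42BPA had -0.49 and -0.10, with overlap.

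Other genes had smaller differences with smaller standard errors. PPP3CA, the catalytic subunit of calcineurin, read 12.06, 11.98 and 11.93 against 12.46, 12.28 and 12.37 (-0.38, SE 0.08, adjusted p = 0.65), but its other 4 probe sets had -0.08 to 0.15. PTK2, the focal adhesion kinase, had -0.56 (SE 0.12), and its second, brighter probe set had -0.24, again without overlap. ELOVL6, a fatty acid elongase, had -0.52 (SE 0.12), WDR5B, a relative of the chromatin protein WDR5, had -0.73 (SE 0.14), and APOO, a subunit of the mitochondrial cristae complex, had -0.68 (SE 0.15). CBWD1, a zinc-handling GTPase of the COBW family, had -0.60 (SE 0.11). Other probe sets of WDR5B had -0.62 and 0.01, that of CBWD1 had -0.37, those of ELOVL6 -0.34 and 0.22 and that of APOO 0.15.

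ALDH1A3, an aldehyde dehydrogenase that makes retinoic acid, completed the 15. Its signal was 8.57, 8.32 and 8.79 under the minus lens, 9.04, 9.05 and 8.86 without a lens and 9.14, 9.17 and 9.21 under the plus lens. No value of one group lay within the range of another. The lens difference was log2 -0.61 (SE 0.13, adjusted p = 0.64). Of 11 retinoic acid genes measured, 8 had a higher mean under the minus lens and 3 a lower one (median 0.20). In limma 0 of them passed, and 3 reached an unadjusted p under 0.05, as 7.34% of all genes did. CRABP1, which binds retinoic acid in the cytosol, had 0.40 (SE 0.14) and read 6.83 to 7.08 against 6.34 to 6.66. The retinal reductase family member DHRS7 had 0.49 (SE 0.19), and the second retinaldehyde dehydrogenase ALDH1A1 had -1.14 (SE 0.68), with arrays that overlapped.

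Genes with higher signal under the minus lens were led by 2 genes of bipolar cells. VSX1, a homeobox factor of cone bipolar cells, read 8.77, 8.85 and 8.87 under the minus lens and 7.83, 7.92 and 8.15 under the plus lens, with controls at 7.70, 7.78 and 8.12. GNG13, a G protein gamma subunit of ON bipolar cells and taste cells, read 7.76, 7.42 and 7.90 against 6.83, 6.74 and 6.68, with controls at 6.45, 6.38 and 6.09. For each gene all 3 minus lens arrays lay above the other 6, and for GNG13 the 3 plus lens arrays also lay above the controls. The lens difference was 0.86 (SE 0.14) for VSX1 and 0.94 (SE 0.16) for GNG13, with an adjusted p of 0.506 for both in limma.

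The other 13 in this direction belong to varied processes. PRTFDC1, a relative of the purine salvage enzyme HPRT, read 8.02, 8.52 and 8.79 against 6.97, 7.08 and 6.70 (log2 1.53, SE 0.28, adjusted p = 0.51), and its dimmer second probe set had -0.34. ASNS, asparagine synthetase, read 7.51, 7.70 and 7.05 against 6.48, 6.48 and 6.35, with controls at 6.31, 7.01 and 6.72 (0.98, SE 0.22, adjusted p = 0.65). SOUL, a haem-binding protein known from the chick retina and pineal gland, had 0.95 (SE 0.20). In both SOUL and the matrix protein gene SBSPON (0.88, SE 0.19) the plus lens mean stood close to control, 0.20 and 0.11 above it. SELENOP1, a selenium carrier, had 0.73 (SE 0.16), and its other probe sets had 0.68, also without overlap, and 0.28.

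C2orf88, a small anchor of protein kinase A, had 0.94 (SE 0.20). FBXO22, a ubiquitin ligase subunit, had 0.67 (SE 0.14), while its other 3 probe sets had -0.49, -0.28 and 0.16. The splicing factor CDC5L had 0.61 (SE 0.13), against -0.15 to 0.10 at its other probe sets. RPL38 of the large ribosomal subunit had 0.60 (SE 0.14), and its others had 0.60, 0.31 and 0.25. BEND7, a BEN domain protein, had 0.56, the ATP synthase assembly factor ATPAF2 0.56, PDCD2L 0.54 and NDUFA12 of respiratory complex I 0.42. For these last 4 genes the SE was 0.10 to 0.13.

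Where a gene had more than 1 tested probe set, the others often differed. Over the 2151 such genes, 1697 of the 2848 further probe sets (59.6%) had the direction of the one with the smallest p. Among the 30 genes above, 13 had further probe sets, and 16 of those 26 (61.5%) had the same direction. Differences of single probe sets such as those of FBXO22, CDC5L and PPP3CA are therefore not measurements of the whole gene. Without minus lens replicate 3 the 30 differences were 0.708 to 1.19 times as large. Their direction could not turn, because the 30 were chosen for lens arrays that do not overlap.

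The untreated arrays place each lens against no lens, although both comparisons then share the same 3 controls. Of the 15 genes higher under the minus lens, the control mean was nearer to the plus lens mean in 14, the exception being ATPAF2. Of the 15 lower ones it was nearer to plus in 11, and nearer to minus for ODF2L, KLF11, ELOVL6 and APOO. Over the 1256 probe sets without overlap the control mean lay between the lens means and nearer to plus in 553 (44%), between and nearer to minus in 287 (22.9%), beyond the plus lens mean in 335 (26.7%) and beyond the minus lens mean in 81 (6.45%). Over all 12975 probe sets these shares were 23.7%, 14.9%, 37.8% and 23.6%. The larger spread between the minus lens arrays, given above, goes the same way, and its part in these shares was not tested.

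**Figure D3:**
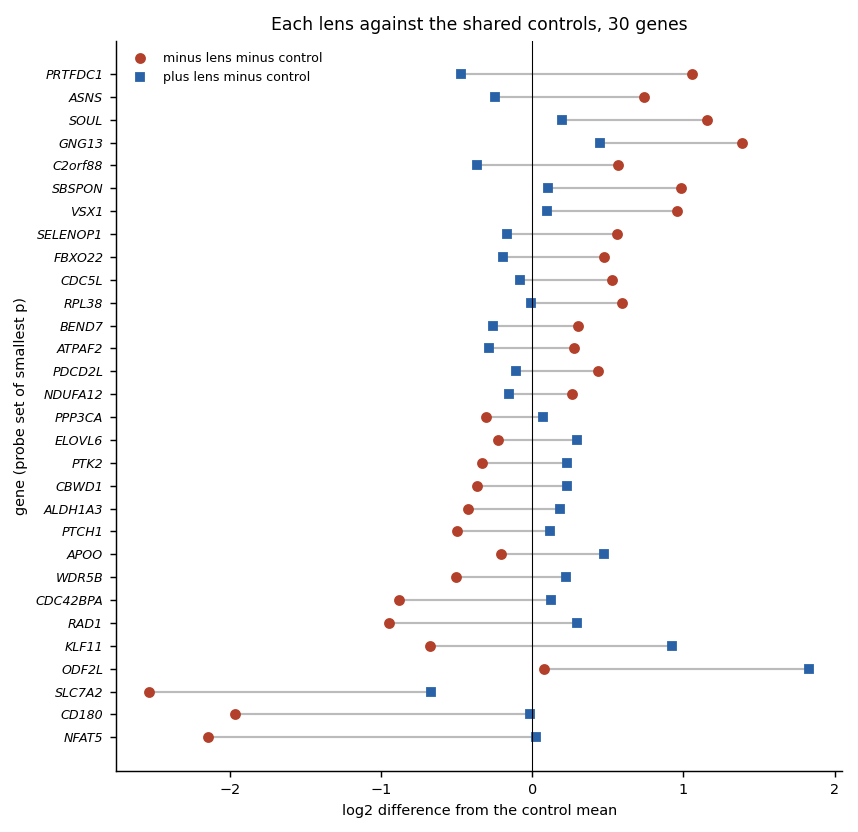
Difference of each lens from the mean of the 3 shared control arrays (horizontal axis, log2) for the 30 genes (vertical axis, ordered by the lens difference), as red circles for the minus lens and blue squares for the plus lens, joined by a line. The blue square lies closer to 0 in 14 of the 15 genes higher and 11 of the 15 lower under the minus lens, and ODF2L is the gene whose plus lens value lies farthest from 0.

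A stepwise order, with all 9 arrays in 3 separate blocks and no lens in the middle, held for 21 probe sets (0.162% of those tested), 9 with the minus lens highest and 12 with the plus lens highest. Random order of the 9 arrays alone gives such blocks for a share of similar size. The order is thus no evidence by itself that a gene responded. With plus highest, the 12 included KLF11, CBWD1, PTK2, ALDH1A3, APOO and MLYCD. MLYCD, malonyl-CoA decarboxylase, read 5.20 to 5.45 under the minus lens, 5.62 to 5.72 without a lens and 5.74 to 6.03 under the plus lens, a lens difference of -0.57 (SE 0.13, adjusted p = 0.66). With minus highest, the 9 included BEND7, FBXO22, ATPAF2, AMDHD2, LPCAT2 and HSBP1. BEND7 read 8.67, 8.84 and 8.84, then 8.51, 8.45 and 8.47, then 8.20, 8.18 and 8.28. HSBP1, which binds heat shock factor, read 8.45 on minus lens replicate 2 beside controls at 8.38 to 8.42, so its blocks barely part. Differences were 0.52 (SE 0.14) for the amino sugar deacetylase AMDHD2 and 0.41 (SE 0.12) for the phospholipid acyltransferase LPCAT2. A second AMDHD2 probe set separated the lenses the opposite way, by -0.09.

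Genes named in earlier work on the chick eye were set beside these. EGR1, the immediate early factor also called ZENK, read 7.84, 7.41 and 7.94 under the minus lens, 7.35, 7.94 and 6.98 under the plus lens and 8.26, 8.94 and 8.21 in controls. The lens groups overlapped each other, and all 6 lens arrays lay below all 3 controls. The lens difference was 0.30 (SE 0.29, adjusted p = 0.81, 95% interval -0.35 to 0.96). GCG, the glucagon precursor, read 9.13, 9.26 and 8.55 under the minus lens and 9.77, 9.46 and 9.83 under the plus lens, with controls at 9.46, 9.73 and 10.49. Its lens arrays did not overlap, and the plus lens and control arrays did (log2 -0.71, SE 0.28, adjusted p = 0.69). Without minus lens replicate 3 the GCG difference was -0.49 (SE 0.28). A dimmer GCG probe set gave -0.97, also without overlap.

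For the other peptides and transmitter genes of this kind the lens arrays overlapped. VIP read 9.11, 9.62 and 7.94 against 9.36, 9.34 and 8.91 (-0.31, SE 0.40), and without minus lens replicate 3 the sign turned, to 0.16. The enkephalin precursor PENK read 13.22 to 13.39 against 13.34 to 13.58 (-0.16, SE 0.10). CHAT, the enzyme of acetylcholine synthesis, read 2.50, 6.32 and 5.28 under the minus lens and 6.07, 6.16 and 6.33 under the plus lens. One control array was as low, at 2.73, and the 95% interval of the lens difference was -4.17 to 1.19. GFRA1, a GDNF co-receptor, and the uncharacterised LOC425969 stood away from control under both lenses: GFRA1 by 1.81 and 1.92 and LOC425969 by -1.97 and -1.61. Between the lenses they differed by -0.10 (SE 0.24) and -0.36 (SE 0.18), with intervals of -0.64 to 0.43 and -0.76 to 0.05. Against control, ODF2L alone passed in limma under the plus lens, and 1 probe set passed under the minus lens. The plus lens differences of GFRA1 and LOC425969 thus did not pass. LOC425969 did not reach log2 4 on all 9 arrays, so the sizes of its differences are uncertain.

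Gene lists were read through the brightest probe set of each of 7130 genes, of which 46% had a higher mean under the minus lens (median log2 difference -0.02). By that reading 1 gene, ODF2L, passed (0.014%), and 721 genes had lens arrays that did not overlap (10.1%), 364 (5.11%) higher and 357 (5.01%) lower under the minus lens. An unadjusted p under 0.05 was reached by 7.34% of the genes. All 10 bipolar cell genes measured had a higher mean under the minus lens, with a median of 0.24. OTX2, a homeobox factor that photoreceptor and bipolar cells need, read 11.85, 11.33 and 12.20 under the minus lens and 11.08, 10.84 and 10.97 under the plus lens, with controls at 10.76, 10.75 and 11.17. Its minus lens arrays lay above the other 6 (0.83, SE 0.21, adjusted p = 0.66), and its second probe set gave 0.44 with overlap. Without minus lens replicate 3 the OTX2 difference was 0.63.

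VSX1, GNG13 and OTX2 were the 3 bipolar genes without overlap (30% of the 10, against 10.1% of all genes). These 3 were fixed by name, and the lists were chosen with earlier results of these data known. The share is thus a description and no independent support. The kainate receptor subunit GRIK1 had 0.71 (SE 0.33) and -0.45 at a second probe set, CA10 had 0.28, the protein kinase PRKCA 0.21, the G protein subunit GNAO1 0.20, BHLHE23 and the channel TRPM1 0.13 each and ISL1 0.02. For PRKCA the minus lens mean, 7.89, was no higher than that of controls, 7.91. A dimmer PRKCA probe set, close to the filter, averaged 4.05 under the minus lens and 4.20 under the plus lens. Past the threshold in limma were 0 of the 10, and an unadjusted p under 0.05 was reached by 3, as by 7.34% of all genes. Averaged over the list and set against control, minus lens replicates stood at 0.55, 0.34 and 0.46 and plus lens replicates at 0.00, 0.05 and 0.01. Summed over the list, log2 intensity was 12.42 to 12.88 under the minus lens and 12.00 to 12.10 under the plus lens. Controls stood at 11.93 to 12.21, so the minus lens arrays lay apart from the rest. OTX2, a bright member, makes up much of this sum, so it says little about the other genes. The median difference of the list was 0.30 without minus lens replicate 3, with 9 of 10 higher.

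Bipolar cells border the captured layer, and in such samples more cells of a type and more RNA per cell cannot be told apart. Beside the bipolar genes, 9 of 11 amacrine GABA and glycine genes had a lower mean under the minus lens (median -0.07). Leaving out minus lens replicate 3 made that 6 of 11 (median -0.0042). GAD1 had -0.15 (SE 0.08) without overlap, and the vesicular GABA transporter SLC32A1 had -0.45 (SE 0.17) with overlap. CALB2 of the same list was higher, by 0.16, and had 0.03 at another probe set. Summed, these 11 genes stood at log2 15.45 to 15.65 under the minus lens and 15.57 to 15.71 under the plus lens, and the groups overlapped. Other amacrine lists did not lean down in this way. Of 6 amacrine acetylcholine genes 4 were higher and 2 lower (median 0.06). Of 8 amacrine neuropeptide genes 4 were higher and 4 lower (median -0.05). Photoreceptor genes, which OTX2 also serves, were too few to describe as a group, at 4 measured. Of them GNB3, a G protein subunit of cones and ON bipolar cells, had 0.37 without overlap and 0.09 at a second probe set. PDE6G and IMPG1 had 0.15 and 0.11, and the cone opsin OPN1LW had -0.52, with a minus lens mean below the filter. Whether the share of bipolar cells in the captured tissue differed was not tested.

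**Figure D4:**
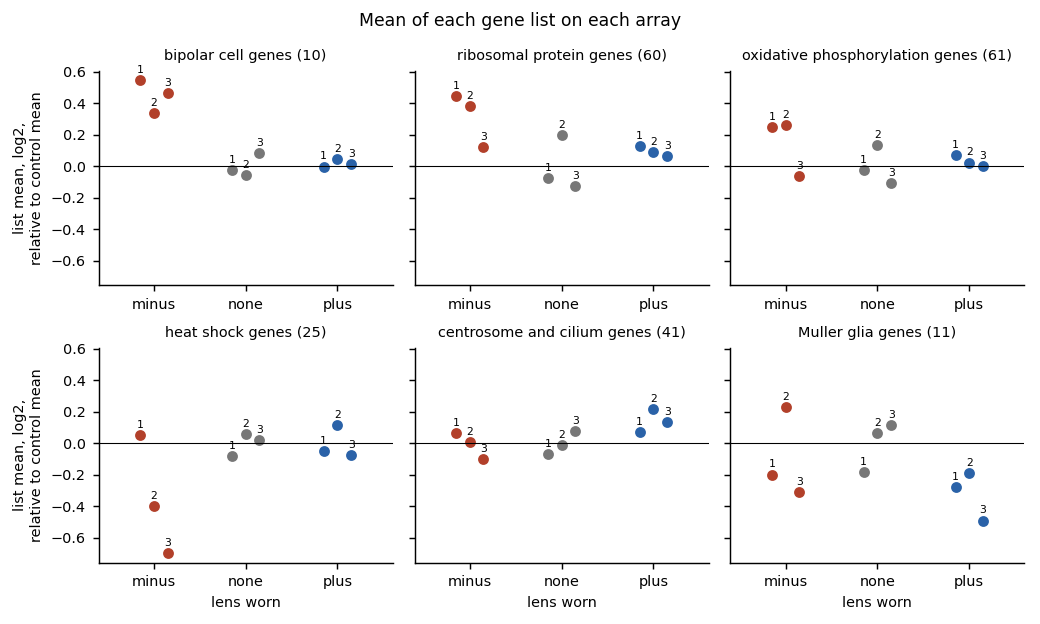
Mean log2 intensity of 6 gene lists on each array relative to the mean of the 3 controls (vertical axis), for the minus lens, no lens and the plus lens (horizontal axis); numbers beside the points are replicates and numbers in brackets count the genes measured. The 3 minus lens arrays stand above all others for bipolar cell genes, replicate 3 falls back to the others for ribosomal protein and oxidative phosphorylation genes, and replicates 2 and 3 alone are low for heat shock genes.

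Genes for the proteins that build the ribosome leaned to the minus lens. Of 60 measured, 54 had a higher mean (median 0.26). Arrays did not overlap for 19 (31.7%, against 10.1% of all genes), all higher. Of all genes, 5.11% were higher without overlap. RPS15 of the small subunit read 9.79, 9.94 and 9.53 under the minus lens and 9.13, 9.07 and 9.23 under the plus lens (0.61, SE 0.16). RPS16, also of the small subunit, read 11.28, 11.49 and 11.15 against 10.74, 10.50 and 10.73 (0.65, SE 0.18), and RPL27 of the large subunit had 0.42 (SE 0.11), with -0.31 and 0.05 at dimmer probe sets. Of the 60, 0 passed in limma, and 17 reached an unadjusted p under 0.05, as 7.34% of all genes did. RPS24 had 0.49 at its brightest probe set and -0.54 at a dimmer one.

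By array, the ribosomal mean lay 0.45, 0.38 and 0.12 above control with the minus lens (replicates 1, 2 and 3) and 0.13, 0.09 and 0.07 with the plus lens. Control replicate 2 stood at 0.20. By this mean minus lens replicate 3 lay among the plus lens arrays. By summed intensity, which the brightest genes dominate, all 3 minus lens arrays lay above the plus lens arrays, at log2 17.52, 17.45 and 17.31 against 17.23, 17.20 and 17.18, and control replicate 2 stood at 17.32. Leaving out minus lens replicate 1, 2 or 3 gave a median of 0.17, 0.23 or 0.35.

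Genes of oxidative phosphorylation had a higher mean in 44 of 61 cases (median 0.14). Of these, 9 had no overlap, which is 14.8% of the list against 10.1% of all genes, and no lower gene did. Named by smallest p, the complex I subunits NDUFA12, NDUFB3 and NDUFA4 had 0.42, 0.41 and 0.49, and UQCR11 of complex III had 0.39. Further NDUFB3 probe sets gave -0.70, without overlap, and 0.13. In limma 0 of the 61 passed, and 4 reached an unadjusted p under 0.05, as 7.34% of all genes did. Minus lens replicates averaged 0.25, 0.26 and -0.06 over the list and plus lens replicates 0.00 to 0.07, so replicate 3 again did not share the position of the others. Leaving out minus lens replicate 1, 2 or 3 turned the median to 0.04, 0.05 or 0.24.

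Heat shock genes, whose products fold proteins, had a lower mean under the minus lens in 20 of 25 cases (median -0.22). HSPA8, the constitutive cytosolic chaperone, read 12.49, 11.64 and 11.77 under the minus lens, 12.68, 12.43 and 12.75 under the plus lens and 13.10, 12.87 and 13.02 in controls (-0.65, SE 0.21). Its co-chaperone DNAJA1 read 10.61, 9.59 and 7.53 under the minus lens and averaged 10.90 ± 0.09 (SD, n = 3) under the plus lens, a difference of -1.66 (SE 0.64). A second DNAJA1 probe set had -1.15 without overlap. HSP90B1 and HSPA5, chaperones of the endoplasmic reticulum, had -1.03 (SE 0.33) and -0.83. A dimmer HSP90B1 probe set had -0.20 (SE 0.43) with overlap. HSPA4L had -0.68, while another HSPA4L probe set went the other way, by 0.30 with overlap. In limma 0 of the 25 passed, and 5 reached an unadjusted p under 0.05, as 7.34% of all genes did. Lens arrays did not overlap for 2 (8%, against 10.1% of all genes), DNAJA1 lower and DNAJA3 (0.20) higher.

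Low heat shock signal was seen on 2 of the 3 minus lens arrays. Set against control, their list means were 0.05, -0.40 and -0.69, while plus lens replicates had -0.05, 0.12 and -0.07. Leaving out minus lens replicate 1 gave a median of -0.41 and leaving out replicate 3, the unlike array, gave -0.12, and the DNAJA1 difference without replicate 3 was -0.80. Genes of amino acid shortage and endoplasmic reticulum stress leaned the same way, with 16 of 20 lower (median -0.16). Its members of smallest p differed in opposite directions: SLC7A2 and the disulphide isomerase PDIA4 (-0.69, SE 0.25) were lower, and ASNS was higher.

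**Figure D5:**
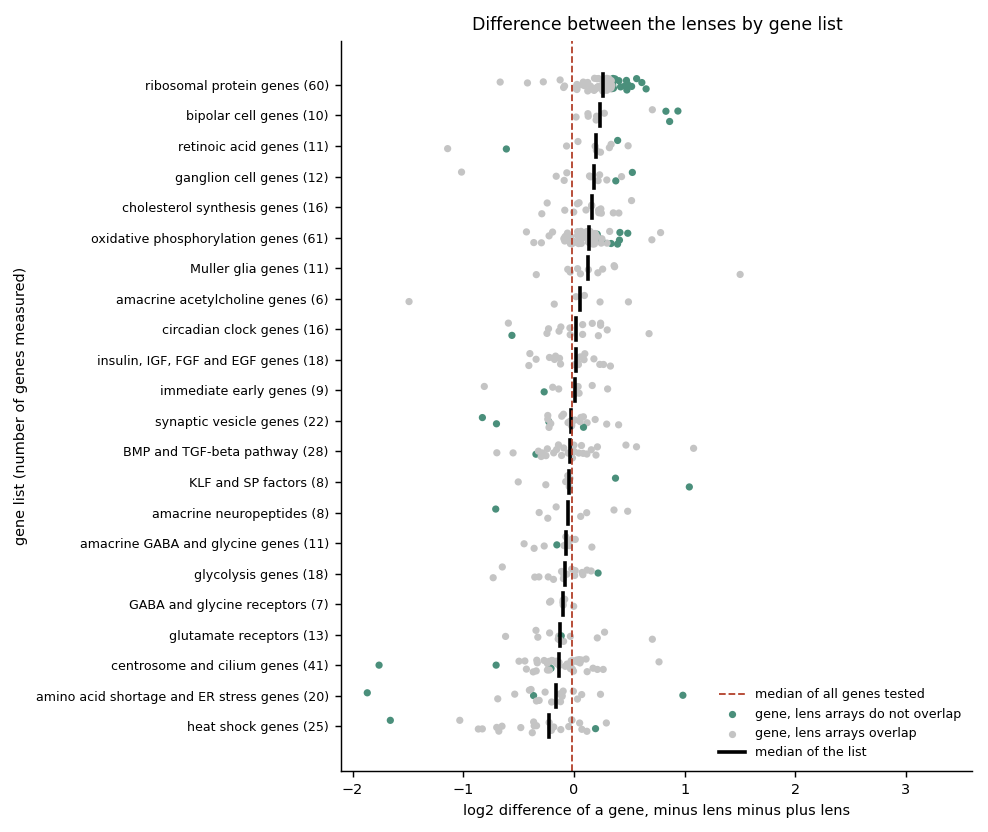
Log2 difference between the lenses (horizontal axis, minus lens minus plus lens) for each gene of the lists with 5 or more genes measured (vertical axis, number measured in brackets). Points are genes, green where the lens arrays do not overlap; black bars are list medians, and the dashed line is the median of all 7130 genes, -0.02. List medians run from -0.22 for heat shock genes to 0.26 for ribosomal protein genes.

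Relatives of the 2 called genes were described in the same way. Of 41 centrosome and cilium genes, a list that holds ODF2L itself, 30 had a lower mean under the minus lens (median -0.13). Lens arrays did not overlap for 3 of them, ODF2L included, which is 7.32% of the list against 10.1% of all genes. ODF2L alone passed in limma. CEP78, a centriolar protein, had -0.70 (SE 0.26) and read 6.52, 7.28 and 6.38 against 7.31, 7.45 and 7.54. The centriole duplication kinase PLK4 had 0.77 (SE 0.30) and read 4.14, 5.22 and 5.48 against 4.06 to 4.23, with 1 minus lens array inside the plus lens range, and had 0.50 without replicate 3. Of 8 Krüppel-like and SP factors measured by their brightest probe sets, 6 had a lower mean (median -0.05). The direction turned without minus lens replicate 3, with 5 higher and 3 lower (median 0.10), and with arrayWeights (0.11). KLF5 (1.04, SE 0.36, with a plus lens mean of 3.81, below the filter) and KLF13 (0.38, SE 0.20) had higher means without overlap, and KLF15 a lower one (-0.50, SE 0.20) with overlap. KLF5 had 0.62 without minus lens replicate 3, and other KLF13 probe sets gave -0.48 and 0.19.

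Synaptic genes gave a mixed picture. Of 22 synaptic vesicle genes, 13 had a lower mean under the minus lens (median -0.03). The calcium sensor SYT1 read 11.79, 11.79 and 10.65 against 12.61, 11.96 and 12.14 (-0.83, SE 0.34), and its other 2 probe sets gave -0.87 and -1.28, all 3 without overlap. Without minus lens replicate 3 the SYT1 difference was -0.45. RAB3B, a GTPase of vesicle release, had -0.70 (SE 0.27) and the vesicle protein SYP -0.23 (SE 0.11), both without overlap, and SV2B had 0.40. SYP had -0.12 without minus lens replicate 3 and -0.02 at a second probe set. In limma 0 of these 22 genes passed, and 2 reached an unadjusted p under 0.05, as 7.34% of all genes did.

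Markers of other cell types were read last. Müller glia genes were higher in 8 of 11 cases (median 0.13). Without minus lens replicate 2 or plus lens replicate 3 they were higher in 5 and lower in 6 (median -0.0042 and -0.0039). Leaving out minus lens replicate 1 or 3 raised the median to 0.27 or 0.22, and leaving out plus lens replicate 2 to 0.30. The list had 0 members at an unadjusted p under 0.05, and its mean overlapped between the lenses, at -0.31 to 0.23 under the minus lens and -0.49 to -0.19 under the plus lens. Ganglion cell genes were higher in 8 of 12 (median 0.19, and 0.088 without minus lens replicate 1). RBPMS, an RNA-binding protein of ganglion cells, had 0.53 (SE 0.15) without overlap, and 0.41 and -0.01 at its other probe sets, whereas the neurofilament NEFL had -1.02 (SE 0.41) with overlap and -0.62 without minus lens replicate 3. Of immediate early genes 5 of 9 were higher (median 0.01), and 2 of 9 without minus lens replicate 1 or plus lens replicate 3. NR4A2 had -0.27 (SE 0.15) without overlap and -0.14 without minus lens replicate 3, and FOS lay below the filter.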

How the data were processed

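The authors deposited 1 intensity for each of 38535 probe sets and 9 arrays, on a linear scale as judged from the values. The submitters' processing notes name GCRMA. Its version is not given in the sources used here. This method takes background from probe composition and usually brings probe intensities to 1 distribution. The size of dim differences then depends on that background step, and a change in total RNA is not visible. The deposited probe set values still differed between arrays, with a median intensity of 7.57 on control replicate 2 and 8.32 on minus lens replicate 3. Log2 was taken with no pseudocount. Of 37693 chicken probe sets, 12975 (34.4%) passed the filter, and 96 control and 746 other probe sets were left out. The platform annotation gave 1 symbol to 9978 tested probe sets, several to 47 and none to 2950, and only the first were named. Of 27166 chicken probe sets with 1 symbol, 26851 were found in the RefSeq table of GRCg7b, which changed 0 symbols.

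A single fit of the 9 arrays in limma 3.58.1 (R 4.3.3) used lmFit and eBayes with a trend on intensity. Tests were two-sided and adjusted after Benjamini and Hochberg over every probe set tested. Residual and prior degrees of freedom were 6 and 2.64. Depth has no meaning for arrays, and their number limits precision: the median SE of a log2 difference was 0.19. On data simulated from these arrays, with 200 of 12975 probe sets changed, 0% were recovered at log2 0.5, 51.2% at 1 and 90.1% at 2, with up to 5.36% false calls. The simulation gave a probe set the same spread in every group. The real minus lens arrays varied more (median SD 0.251, against 0.176 for plus lens and 0.172 for control), so real recovery may differ. The 200 planted changes also ease the adjusted threshold, which is stricter where fewer probe sets change. On the real arrays 140 probe sets differed by log2 1 or more, and 2 passed. The shares recovered therefore do not give the recovery on these arrays.

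Named were all probe sets past the threshold, the 15 genes of smallest p in each direction without overlap, up to 4 members of smallest p per list, up to 6 genes per direction in 3 ordered blocks, and BMP2, CHAT, EGR1, FOS, GCG, GFRA1, GNG13, LOC425969, OTX2, PENK, PER2, TH, VIP and VSX1. SST, also in that rule, was matched to no probe set and was not analysed here. A few markers and list members outside that rule (such as PAX6, GNB3, OPN1LW, DNAJA3, HSPA5 and further bipolar cell genes) were added after their values were seen. The members and the 30 gene lists were chosen with earlier results of these data known, and no list was tested. Replicate numbers did not pair the lens arrays: deviations of same-numbered arrays correlated at -0.03, 0.12 and 0.09. No 2 arrays held identical values.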

Additional observations from a re-analysis of the deposited data

Results flagged for a closer look

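The effects of the lenses against the shared controls differed for 2 genes in limma. Because the controls cancel, this is the contrast of minus against plus lens given above, and it adds no further evidence. The effect of the minus lens minus that of the plus lens was log2 -1.76 for ODF2L (adjusted p = 0.0114) and -1.60 for KLF11 (adjusted p = 0.0246). For ODF2L the difference lay with the plus lens arrays. For KLF11 the 3 arrays of each lens lay on opposite sides of the 3 controls at this probe set. The brighter KLF11 probe set had -0.25 (adjusted p = 0.79 in limma), with lens arrays that overlapped.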

How the results depend on the processing

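Of 140 probe sets that the naming rule gave, 96 were carried through the alternatives, some of genes not discussed above, such as ARNTL2 and NPY. Of these 96 differences, 93 kept their direction under every one of the 20 alternatives that could be fitted. The exceptions were DUSP1 (-0.81), VIP (-0.31) and GFRA1 (-0.10). Many of the alternatives could not turn a direction, so the count overstates stability. Other filters, other variance settings, the replicate block and fits without some or all controls leave the difference between lens means as it is. For probe sets without overlap, leaving out 1 lens array cannot turn the direction either. Leaving out 1 array gave -1.28 to 0.044 for DUSP1, -0.68 to 0.16 for VIP and -0.30 to 0.17 for GFRA1, each positive without minus lens replicate 3, and GFRA1 was 0.045 without plus lens replicate 1. With arrayWeights VIP had 0.11 and GFRA1 0.086. The cause was not tested. Probe sets called numbered 2. The number was 1 with no filter and with quantile normalisation, and 0 with a filter at log2 6 (where ODF2L is not tested), median centring, only the 6 lens arrays or the replicate block. Leaving out 1 array gave 0 to 2. Genes called numbered 1. The number was 0 with the filter at log2 6 and with only the 6 lens arrays, 2 with a pseudocount of 16 (ODF2L and NFAT5) and 0 to 5 when 1 array was left out. The 5, without minus lens replicate 2, were CD180, RAD1, KCNA2, ODF2L and NFAT5. The adjusted p of ODF2L ran from 0.00272 to 0.174 and that of the called KLF11 probe set from 0.0155 to 0.186. In the fit with the replicate number as a block both stood at 0.0828 among probe sets. Counts at an unadjusted p under 0.05 ran from 680 to 1362, and counts without overlap from 967 to 3062, the higher ones where an array or the filter was left out. Of 23 medians, 1 of them that of all genes tested, 17 moved by less than the spread of the list mean between arrays. That spread takes in the unlike minus lens replicate 3, so a median within it could still shift or turn. Among the 17, ribosomal protein genes ran from 0.17 to 0.35, heat shock genes from -0.41 to -0.12 and glycolysis genes from -0.20 to 0.061. The other 6 were those of the bipolar cell genes (0.20 to 0.49, the highest with the filter at log2 6), KLF and SP factors (-0.14 to 0.11), the BMP and TGF-beta pathway (-0.10 to 0.017), centrosome and cilium genes (-0.21 to -0.022), retinoic acid genes (0.044 to 0.24) and insulin, IGF, FGF and EGF genes (-0.12 to 0.059). ODF2L, NFAT5, KLF5 and LOC425969 had values near or below the filter at log2 4, so the sizes of their differences are uncertain.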

Other observations

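In the lists not described above 0 members passed in limma. All 7 GABA and glycine receptor genes measured had a lower mean under the minus lens, by 0.22 at most (median -0.10), none without overlap and 0 at an unadjusted p under 0.05. Of 13 glutamate receptor genes 10 were lower (median -0.13), with 1 at an unadjusted p under 0.05. The AMPA receptor subunit GRIA3 read 11.41, 10.97 and 11.02 against 11.35, 11.52 and 11.55 (log2 -0.34, SE 0.13), and further probe sets gave -0.80 and -0.03. Of 16 cholesterol synthesis genes 12 were higher (median 0.16, and 0.052 without plus lens replicate 3), with 0 at an unadjusted p under 0.05.

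Of 16 circadian clock genes 8 were higher and 8 lower (median 0.02). The repressor CRY1 read 10.85, 10.81 and 10.19 under the minus lens and 11.11, 11.12 and 11.29 under the plus lens, without overlap (-0.56, SE 0.19), and was -0.34 without minus lens replicate 3. PER2 had 0.30 (SE 0.19). Of 28 genes of the BMP and TGF-beta pathway 16 were lower (median -0.03), and SMAD3, a signal transducer, was the 1 without overlap (-0.34, SE 0.19). That is 3.57% of the list, against 10.1% of all genes. BMP2, a ligand, had -0.32 (SE 0.33). Of 18 insulin, IGF, FGF and EGF genes 10 were higher (median 0.02), and of 18 glycolysis genes 11 were lower (median -0.08), with 1 at an unadjusted p under 0.05 in each list. Without minus lens replicate 3 both directions turned, to 6 of 18 higher (median -0.087) and 8 of 18 lower (median 0.061).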
